A study of Mus musculus with 18 samples.

Results

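Notch signalling was examined here through 10 of its genes: the receptors Notch1, Notch2 and Notch3, the ligands Jag1, Jag2 and Dll1, the nuclear partners Rbpj and Maml3, and the effectors Hes1 and Hey2. They are 10 of 21887 protein-coding mouse genes. A peak was counted for a gene when it overlapped the RefSeq span of that gene or the 1000 bp on either side. By this rule 105 of the 55642 peaks in the 10 libraries analysed belonged to these genes, and overlapping peaks merged into 62 separate regions. The data are ATAC-seq, which reads open chromatin by transposase insertion, from lungs of adult c57/bl6 mice of 6 to 12 weeks treated with a G9a inhibitor (G9ai) or with Vehicle, 3 mice per arm. G9a is a histone methyltransferase that places the repressive dimethyl mark on lysine 9 of histone H3. Every library came from 10000 sorted cells lacking CD31 and CD45 and carrying Epcam and Sca-1, in populations labelled CD24-, CD24 low and CD24 high (CD24neg, CD24low and CD24high below). G9ai lists were replicates 2 and 3 of each population. Vehicle lists were replicate 3 for CD24neg, replicates 2 and 3 for CD24low and replicate 3 for CD24high, and the other 8 of the 18 samples were not analysed here. No genotype other than the strain was labelled, nor were the inhibitor's dose and duration.

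Notch receptors are cleaved when a ligand of the Jagged or Delta-like family on a neighbouring cell binds them, and the freed intracellular domain enters the nucleus. There it binds RBPJ and a Mastermind-like coactivator on DNA and switches on effector genes of the Hes and Hey families, which encode transcriptional repressors. In the airway epithelium of mice, Notch activity is known to favour secretory over multiciliated cells.

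The deposited lists hold only peaks set apart as particular to an arm. A region listed in every G9ai library of a population and in no vehicle library of it is called G9ai-only here, and the opposite is called vehicle-only. Only 86 regions in CD24neg cells, 18 in CD24low cells and 105 in CD24high cells were listed in both arms, against 2500 to 12880 listed in every library of 1 arm. A gene without a listed peak therefore has no listed difference, and whether its chromatin was open or closed in both arms cannot be told apart. The score of a peak is the authors' whole number, on a scale that neither labels nor files state, so scores are read only against the other peaks of the same list. In the CD24neg and CD24high populations the vehicle arm had 1 list, so vehicle-only regions there have no replicate check.

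Hey2, the effector with the strongest entry among the 10 genes, had its start site under a peak in both CD24low G9ai libraries. The peak covered chr10:30842719-30843438 in replicate 2, with a score of 665, and chr10:30842698-30843280 in replicate 3, with a score of 408. No list of the CD24low vehicle, CD24neg or CD24high libraries held a peak in the Hey2 window. The replicate 2 peak ranked 2 of 7379 by score in its list, and the replicate 3 peak ranked 10 of 7361. At 720 bp and 583 bp they were wider than 99.9% and 99.8% of the peaks in their lists, whose median widths were 183 bp and 140 bp. By mean score, 536.5, the merged region was number 2 of the 7172 G9ai-only regions of CD24low cells. It was also the only one of the 62 regions that overlapped a promoter window, taken as 250 bases before to 50 bases after a start site. Whole coverage of a promoter window was uncommon in these lists: it occurred for 21 of 21263 windows (0.0988%) in replicate 2 and for 20 (0.0941%) in replicate 3.

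The Hey2 promoter sequence is shown because it lies whole beneath both peaks and because Hey2 is a known target of the RBPJ complex. The bases are RefSeq's for GRCm38.p6, minus strand, chr10:30842781-30843033, with capitals marking the RBPJ motif GTGGGAA or its reverse complement TTCCCAC:
Hey2 promoter: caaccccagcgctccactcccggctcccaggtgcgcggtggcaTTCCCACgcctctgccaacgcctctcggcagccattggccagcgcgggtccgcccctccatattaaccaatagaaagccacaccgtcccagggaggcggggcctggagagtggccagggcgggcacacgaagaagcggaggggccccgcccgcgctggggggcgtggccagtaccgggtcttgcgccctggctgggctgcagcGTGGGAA

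The antisense match began 207 bases upstream of the start site (chr10:30842984-30842990), and the sense match spanned the start site itself (chr10:30842781-30842787). Searched on both strands, GTGGGAA was present in 6.07% of all promoter windows, and 2 or more matches were present in 55 windows (0.259%). Among the 11 windows found for 9 of the 10 genes, Hey2 alone held GTGGGAA. The shorter TGGGAA, which GTGGGAA contains, was present in 4 of the 11 windows (those of Hey2 and Maml3 and both of Rbpj) and in 24.5% of all windows. The E-box CACGTG was in 0 of the 11 windows and 7.84% of all. CACGCG, a box bound by Hes and Hey repressors, was in 4 of the 11 windows, those of Notch2, Jag1, Jag2 and 1 of Dll1, and in 12.1% of all. These are matches of letters and do not show binding.

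**Figure D1:**
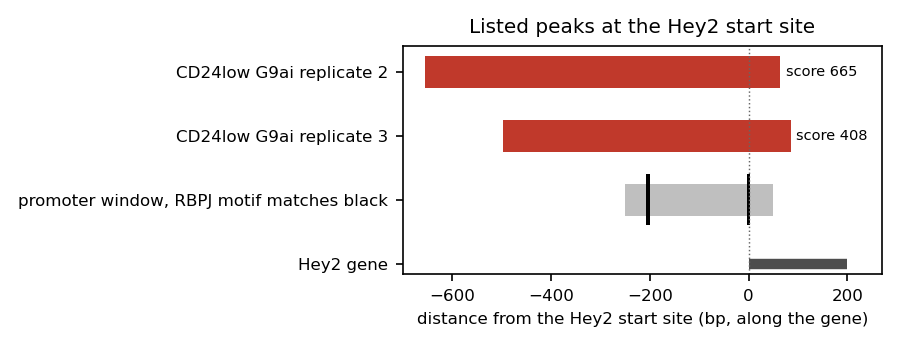
Extent of the Hey2 peaks in the CD24low G9ai libraries (red bars, with the authors' scores), plotted as distance along the gene from the start site in bp, over the promoter window (grey) with its 2 GTGGGAA matches (black). Both peaks cover the whole window, and no vehicle list has a peak to draw.

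All 3 receptors carried regions in both arms, mostly at different places. Counted over all populations, 1 of 6 merged regions of Notch1, 2 of 12 of Notch2 and 0 of 4 of Notch3 were listed in both arms. Notch1 (chr2:26457902-26503822) had 2 and 2 peaks in the CD24neg G9ai libraries and 1 in the vehicle library. It had 2 and 2 in the CD24low G9ai libraries and 0 and 0 in the vehicle libraries. The CD24high counts were 1 and 1 with G9ai and 3 with vehicle. The G9ai libraries were higher in CD24neg and CD24low cells and lower in CD24high cells. These counts are small, and the vehicle arm of CD24neg and of CD24high cells had 1 list.

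In Notch1, a G9ai-only region 20.3 kb inside the gene was found in CD24low cells (chr2:26483309-26483698, scores 93 and 80) and overlapped one in CD24neg cells (chr2:26483362-26483879, scores 101 and 76). It was the only one of the 15 CD24low G9ai-only regions in these genes that was also G9ai-only in CD24neg cells, against 5.77% of all 7172. Other G9ai-only regions of Notch1 lay nearer the start, at 2.85 kb in CD24neg cells (chr2:26500897-26501055, scores 171 and 98) and at 1.36 kb in CD24low cells (chr2:26502294-26502623, scores 130 and 54). The score of 171 was above 97.4% of its list, while the 54 was above 24.1% of its own. A further Notch1 region, 8.59 kb inside the gene, was listed in both arms of CD24high cells, with scores of 101 and 106 in the G9ai libraries and 195 in the vehicle library (chr2:26495091-26495377). The CD24neg vehicle list held it too, with a score of 69. It was the only one of the 62 regions listed in both arms of the same population. The CD24high vehicle library had 2 more Notch1 peaks, 43.4 kb and 42.8 kb inside, with scores of 69 and 173.

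Notch2 (chr3:98013538-98150367) was listed in all 6 groups. It had 2 and 2 peaks with G9ai and 1 with vehicle in CD24neg cells, 3 and 3 with G9ai and 1 and 1 with vehicle in CD24low cells, and 1 and 1 with G9ai and 8 with vehicle in CD24high cells. The G9ai libraries had more Notch2 peaks than the vehicle libraries in CD24neg and CD24low cells, and fewer in CD24high cells. Its highest score in a G9ai library was 208, in CD24low replicate 2, for a region 81.8 kb inside the gene (chr3:98095132-98095487) that scored 74 in replicate 3. That region was G9ai-only in CD24low cells and vehicle-only in both CD24neg cells (score 75) and CD24high cells (score 64). A further CD24low G9ai-only region of Notch2, 31.7 kb inside (chr3:98045100-98045277, scores 86 and 50), was vehicle-only in CD24high cells (score 168). The region 67.3 kb inside, by contrast, was vehicle-only in both CD24low cells (chr3:98080734-98080884, scores 71 and 64) and CD24high cells (score 96). The Notch2 region nearest the start site, 490 bp away, was a CD24high vehicle-only region (chr3:98014028-98014230, score 172).

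Notch3 (chr17:32120820-32166896) had no listed peak in CD24neg cells. In CD24low cells it had 2 and 3 peaks with G9ai and 1 and 1 with vehicle, and in CD24high cells 0 and 0 with G9ai and 1 with vehicle. All of its regions lay at the far end of the gene, 39.6 to 47.1 kb from the start site. In CD24low cells the arms alternated over a short stretch: G9ai-only regions were at chr17:32119704-32119847 (scores 127 and 93), chr17:32121902-32121974 (56 and 69) and chr17:32127232-32127444 (107 and 45), and a vehicle-only region lay among them at chr17:32121275-32121360 (61 and 76). The vehicle-only region was also vehicle-only in CD24high cells (chr17:32121252-32121373, score 163). The first of the G9ai-only regions is the one closest to the limit of the window, 973 bp beyond the gene end. Its replicate 2 peak stopped short of the limit, so that replicate is counted with 2 peaks.

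**Figure D2:**
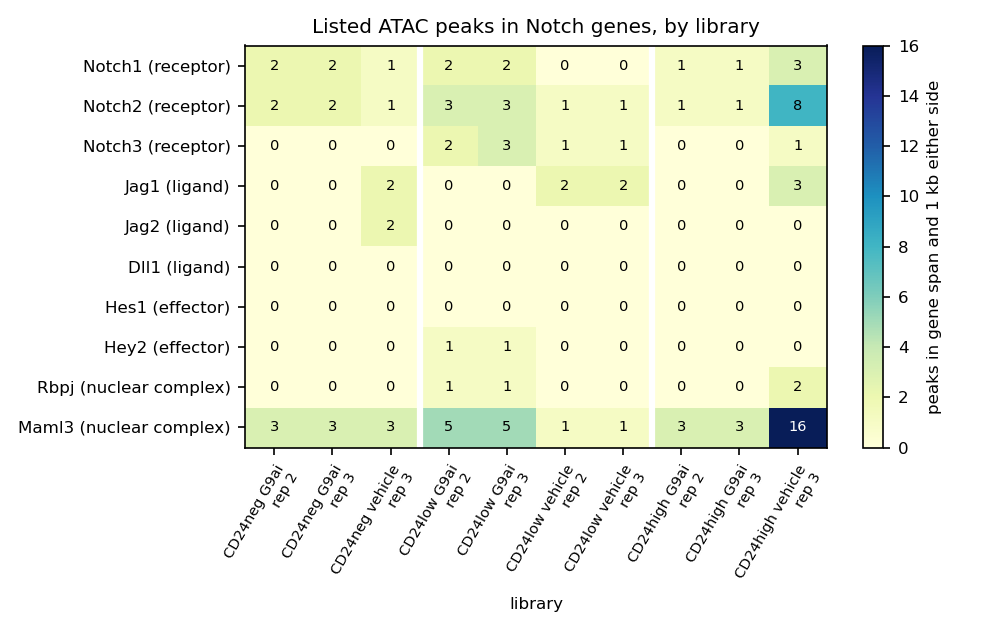
Number of listed peaks in each of the 10 Notch genes (rows) in each library (columns; for each CD24 population, G9ai libraries left and vehicle libraries right), counted in the gene span and 1 kb on either side. Maml3 and Notch2 hold the highest counts, 16 and 8, in the CD24high vehicle library, Jag1 has peaks in vehicle libraries alone, and Dll1 and Hes1 have 0 throughout.

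The ligand Jag1 (chr2:137081451-137116520) had listed peaks in vehicle libraries alone. The counts were 0 and 0 with G9ai and 2 with vehicle in CD24neg cells, 0 and 0 with G9ai and 2 and 2 with vehicle in CD24low cells, and 0 and 0 with G9ai and 3 with vehicle in CD24high cells. None of the 7 Jag1 regions was shared between populations. In CD24neg and CD24high cells the vehicle lists were the longer ones. With every list cut to its 2552 best-scoring peaks, Jag1 kept a vehicle-only region in CD24low cells alone. In CD24low cells a region lay 495 bp upstream of the start site (chr2:137117015-137117198, scores 79 and 76) and another 2.16 kb inside the gene (chr2:137114311-137114412, scores 107 and 86). In CD24neg cells the Jag1 regions were 923 bp upstream (chr2:137117443-137117649, score 85) and 31.0 kb inside (score 104). The 3 of CD24high cells lay 17.7, 18.1 and 33.1 kb inside, with scores of 68, 142 and 143. Presence in exactly these 3 vehicle groups was seen for 123 of the 21887 protein-coding genes. Among the other Notch pathway genes it was seen for Kat2a, which encodes a histone acetyltransferase. The nearest G9ai peaks to Jag1 were 88.6 kb away in both CD24neg libraries, 134.9 kb in both CD24low libraries and 31.9 kb in both CD24high libraries.

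Jag2 (chr12:112907803-112929812), the other Jagged ligand, was listed only in the CD24neg vehicle library, with 2 peaks near its start. They lay 412 bp from the start site (chr12:112929012-112929083, score 85) and 914 bp from it (chr12:112928499-112928581, score 74), and the G9ai libraries of CD24neg cells had 0 and 0. Dll1 (chr17:15367354-15376932), a Delta-like ligand, had no peak in any list. The nearest to Dll1 was 41.1 kb away in the CD24neg vehicle library, and in the other 9 libraries the distance was 158.9 kb or more.

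Of the nuclear partners, Rbpj (chr5:53555779-53657445), the gene of the DNA-binding protein of the pathway, had 1 and 1 peaks with G9ai and 0 and 0 with vehicle in CD24low cells, and 0 and 0 with G9ai and 2 with vehicle in CD24high cells. It was thus listed on opposite sides in those populations, at different places. Distances in Rbpj were taken from a start site at chr5:53590486, which lies well inside the span. The CD24low G9ai-only region was 63.6 kb from that site and 3310 bp from the gene end (chr5:53654031-53654135, scores 105 and 89). The CD24high vehicle-only regions were 56.3 kb from it (score 158) and, beyond the gene end, 67.7 kb from it (score 94).

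Maml3 (chr3:51687320-52105319) encodes a Mastermind-like coactivator and is by far the longest of the 10 genes, at 418 kb, and it held 43 of the 105 peaks. It had 3 and 3 peaks with G9ai and 3 with vehicle in CD24neg cells, 5 and 5 with G9ai and 1 and 1 with vehicle in CD24low cells, and 3 and 3 with G9ai and 16 with vehicle in CD24high cells. The arms were equal in CD24neg cells, the G9ai libraries were higher in CD24low cells, and the vehicle library was higher in CD24high cells. Of the 27 merged regions of Maml3, 7 were listed in G9ai libraries alone, 16 in vehicle libraries alone, and 4 in G9ai lists of one population and vehicle lists of another. The region nearest the Maml3 start site, 1990 bp away, was G9ai-only in CD24neg cells (chr3:52102380-52103016, scores 106 and 176). Maml3 regions listed on opposite sides included chr3:52061022-52061221, G9ai-only in CD24neg cells (scores 155 and 87) and vehicle-only in CD24high cells (score 129). They also included chr3:52028061-52028208, G9ai-only in CD24low cells (scores 49 and 56) and vehicle-only in CD24high cells (score 74).

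**Figure D3:**
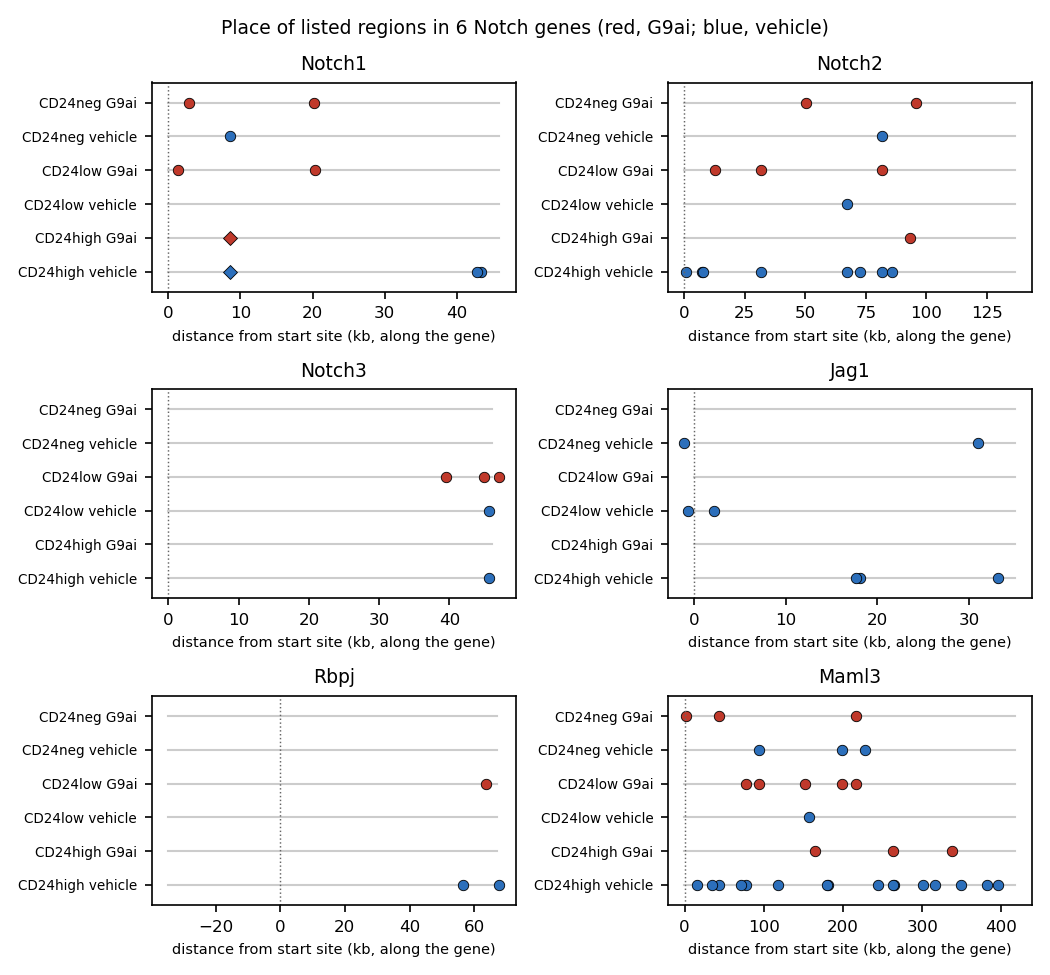
Centres of the listed regions in Notch1, Notch2, Notch3, Jag1, Rbpj and Maml3 as distance along the gene from its start site in kb, with 1 row per group (G9ai above vehicle in each population). Red points are G9ai regions, blue points vehicle regions, diamonds the Notch1 region listed in both arms of CD24high cells, and grey lines the gene span; Jag1 has blue points alone, and Notch3 regions sit at the far end of the gene.

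Of the effectors, Hes1 (chr16:30065357-30067796) had no peak in its window in any library, whereas Hey2 had the CD24low G9ai peaks described above. Just outside the Hes1 window, the CD24high vehicle library had a peak 4.68 kb from the gene (chr16:30060419-30060682, score 412). The CD24low G9ai libraries had peaks 5.79 kb and 5.80 kb from it (scores 112 and 81). The CD24neg G9ai libraries came no nearer to Hes1 than 22.4 kb and 22.5 kb.

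Across all 10 genes, the CD24neg libraries had 7 and 7 peaks with G9ai and 9 with vehicle, the CD24low libraries 14 and 15 with G9ai and 5 and 5 with vehicle, and the CD24high libraries 5 and 5 with G9ai and 33 with vehicle. The G9ai libraries were thus higher in CD24low cells and lower in CD24neg and CD24high cells. Replicate lists of a group held nearly the same regions, so their close counts are partly a property of the lists. In CD24low cells the mean was 14.5 ± 0.707 with G9ai and 5 ± 0 with vehicle (SD, n = 2 each), a difference of 9.5 peaks. An exact two-sided permutation test gave p = 0.333, the smallest that 2 against 2 libraries allow. The differences were −2 in CD24neg cells and −28 in CD24high cells, where 1 vehicle library allows no such test. Permuting libraries within all 3 populations gave a summed difference of −20.5 (exact permutation p = 0.407 over 54 arrangements). With every list cut to its 2552 best-scoring peaks, the length of the shortest, the differences were 2 in CD24neg, −0.5 in CD24low and −4.5 in CD24high cells, so the directions in CD24neg and CD24low cells turned. Without Maml3, the CD24low difference was 5.5 and the CD24high difference −15.

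The lists themselves differed in length in the same directions. They held 4173 and 4149 peaks with G9ai and 8870 with vehicle in CD24neg cells, 7379 and 7361 with G9ai and 2558 and 2552 with vehicle in CD24low cells, and 2798 and 2817 with G9ai and 12985 with vehicle in CD24high cells. In CD24low cells the G9ai lists were 2.88 times as long as the vehicle lists and held 2.90 times as many peaks in the Notch genes. The share of a CD24low list lying in the 10 genes was 0.197% ± 0.00993 with G9ai and 0.196% ± 0.000325 with vehicle (SD, n = 2 each; exact permutation p = 1). In CD24neg cells the shares were 0.168% (Wilson 95% interval 0.0813% to 0.346%) and 0.169% (0.0818% to 0.348%) with G9ai. With vehicle the CD24neg share was 0.101% (0.0534% to 0.193%). In CD24high cells the shares were 0.179% (0.0764% to 0.418%) and 0.177% (0.0758% to 0.415%) with G9ai. With vehicle the CD24high share was 0.254% (0.181% to 0.357%), within both G9ai intervals. Intervals cover counting error only. Replicate lists of a group shared at most 0.177% of their peaks with the same ends and score, and none of those lay in the 10 genes. By overlap, though, only 73 regions in CD24neg, 279 in CD24low and 27 in CD24high cells were listed in 1 library of 2. The G9ai-only regions, listed in both G9ai libraries, numbered 4015, 7172 and 2675, so replicate lists held nearly the same regions. Replicate agreement is partly a property of the lists, and where nothing in the labels says that libraries came from separate mice, a p-value covers the spread between libraries, which can be technical.

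Counted as genes, 3 of the 10 (Notch1, Notch2 and Maml3) had a G9ai-only region in CD24neg cells, where 10.6% of all protein-coding genes did. In the same cells 5 (Notch1, Notch2, Jag1, Jag2 and Maml3) had a vehicle-only region, against 18.9% of all genes. In CD24low cells 6 (all 3 receptors, Hey2, Rbpj and Maml3) had a G9ai-only region, against 15.9% of all genes, and 4 (Notch2, Notch3, Jag1 and Maml3) a vehicle-only region, against 7.44%. In CD24high cells 2 (Notch2 and Maml3) had a G9ai-only region, against 8.01% of all genes, and 6 (the receptors, Jag1, Rbpj and Maml3) a vehicle-only region, against 25.0%. All 6 counts were above the share over all genes, which is not matched for gene length. The 10 genes were chosen with earlier results of these data known, so the comparison with all genes is a description.

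Per length the 10 genes also held more regions than genes at large, with the same limit that they were chosen with earlier results known. In CD24low cells they had 1.77 G9ai-only regions per 100 kb of gene window, against 0.428 over all protein-coding genes, a ratio of 4.13. Their vehicle-only density in the same cells was 0.590 per 100 kb against 0.158, a ratio of 3.74. The ratios were 3.36 (G9ai-only) and 1.99 (vehicle-only) in CD24neg cells, and 2.68 (G9ai-only) and 4.79 (vehicle-only) in CD24high cells. Without Maml3 the CD24high G9ai-only ratio was 1.33, and the other 5 lay between 2.63 and 5.92. By gene, Jag1 was the densest over all lists, with 18.9 merged regions per 100 kb, and Rbpj the sparsest of the listed genes, with 2.89, against 2.04 over all genes.

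**Figure D4:**
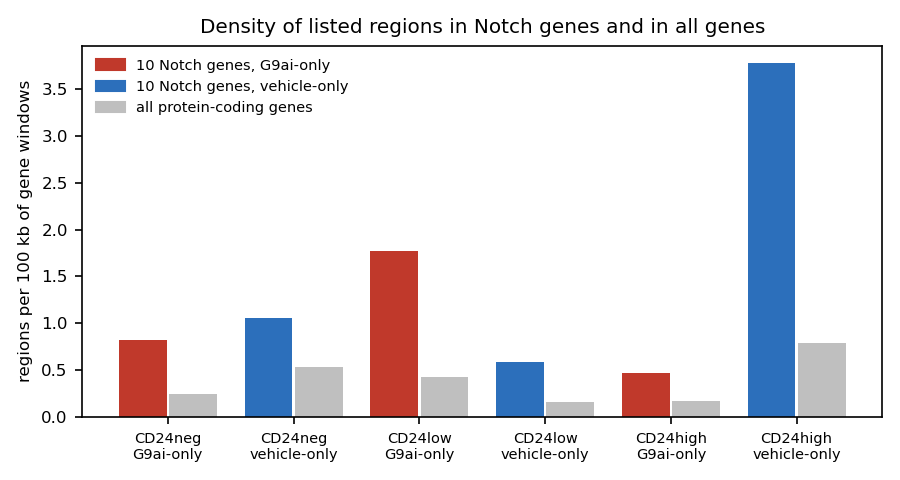
Regions per 100 kb of gene window in the 10 Notch genes (red, G9ai-only; blue, vehicle-only) and in all protein-coding genes (grey), by CD24 population. The coloured bar is above the grey bar in all 6 pairs, with ratios between 1.99 and 4.79; bars are single values over merged regions and have no error bars.

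Of the 62 merged regions, 57 were inside a gene span, 4 were in the flanks and 1, that of Hey2, crossed a gene end; exons and introns were not used here. Merged within each population instead, there were 26 G9ai-only and 46 vehicle-only regions, and a place listed in several populations counts more than once. Within 1 kb of a start site there was 1 of these 26 G9ai-only regions (3.85%, Hey2). Of the 46 vehicle-only regions, 5 were (10.9%, in Jag1, Jag2 and Notch2). Over all gene windows the shares near a start site were 22.5% of 9076 G9ai-only regions and 18.7% of 15780 vehicle-only regions. The Notch gene regions were thus mostly away from start sites, but these shares are not matched for gene length. Maml3 (418 kb) and Notch2 (137 kb) held 27 and 12 of the 62 regions.

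Of the 62 regions, 52 (83.9%) were listed in 1 group, as were 84.9% of the 21746 regions in all gene windows. A further 3 (4.84%) were in several groups of the same arm, against 7.20% of all, and 7 (11.3%) were in groups of both arms, against 7.95%. The 15 CD24low G9ai-only regions in these genes included 3, in Notch2 and Maml3, that were vehicle-only in CD24high cells, against 13.7% of all such regions. They included 3, also in Notch2 and Maml3, that were vehicle-only in CD24neg cells, against 8.66%. Of the 5 CD24low vehicle-only regions, 2 (in Notch2 and Notch3) were vehicle-only in CD24high cells too, against 16.5%. Of the 7 CD24neg G9ai-only regions, 1 (in Maml3) was vehicle-only in CD24high cells, against 13.1%. Counts this small next to those shares are given as description.

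The scores of the Notch gene peaks were spread over most of the range of their lists. Of the 105 peaks, 57 scored above more than 50% of their own list. Leaving out Hey2, the highest reached 97.2% of the list in CD24low G9ai replicate 2 and 80.6% in replicate 3, against 87.8% and 62.3% in the CD24low vehicle replicates 2 and 3. Hey2 stood at 99.97% and 99.9%. In the CD24high vehicle library the 33 peaks ranged between 10.7% and 90.4%, with the Notch1 peak at 195 the highest.

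**Figure D5:**
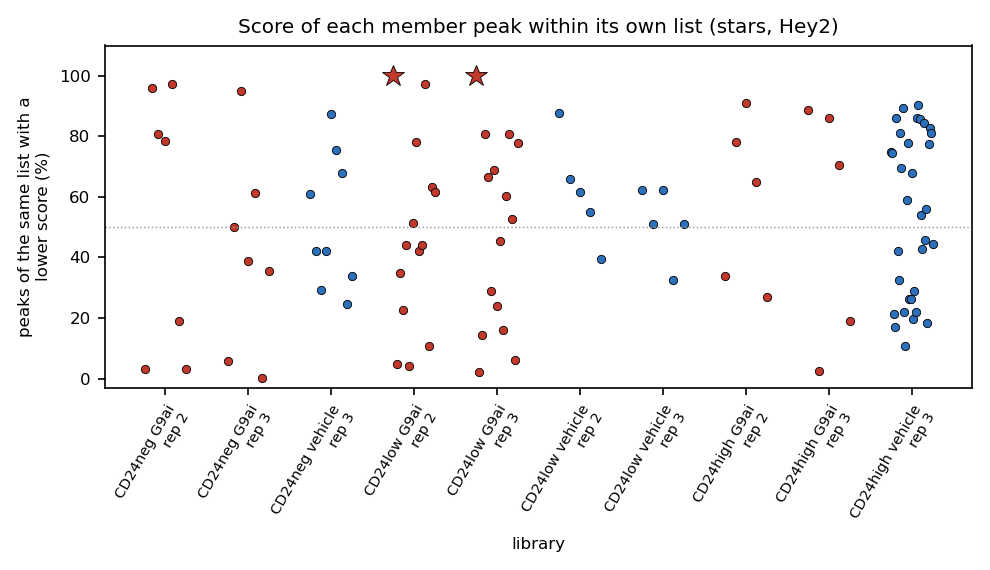
Place of every Notch gene peak within its own list, as the percentage of that list's peaks with a lower score (red, G9ai libraries; blue, vehicle libraries; stars, Hey2; dotted line, 50%). The Hey2 peaks lie at the top of both CD24low G9ai lists, at 99.97% and 99.9%, and the other peaks spread over most of the range.

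Of 57 further genes of the pathway, 37 had a G9ai-only or vehicle-only region in at least 1 group and 20 had none, where 43.7% of all protein-coding genes had one. In CD24neg cells 9 (15.8%) had a G9ai-only and 22 (38.6%) a vehicle-only region, against 10.6% and 18.9% of all genes. In CD24low cells 17 (29.8%) had a G9ai-only and 7 (12.3%) a vehicle-only region, against 15.9% and 7.44%. In CD24high cells 6 (10.5%) and 20 (35.1%) did, against 8.01% and 25.0%. The direction of each pair of counts was that of the 10 genes and of the list lengths. Shares over all genes are not matched for gene length, and the counts by role below have the same limit. By role, regions were found in 13 of 15 genes of the nuclear complex and corepressors, 6 of 8 effectors, 9 of 13 regulators of turnover and endocytosis, 5 of 10 proteases, 2 of 5 glycosyltransferases and 2 of 6 other ligands and receptors.

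Scores are called high here only against those of the other further genes, by mean over the lists of a group. Some of them lay below the median of their own list. In CD24neg cells, high G9ai-only scores among these genes belonged to Hes7, an effector of the segmentation clock (225 and 242). The coactivator genes Maml2 and Maml1 followed, with Fbxw7, whose protein marks the Notch intracellular domain for degradation. High CD24neg vehicle-only scores were in Fbxw7 (202), Rbpjl (186), Kat2a (181), Neurl1b (154) and Spen (152). In CD24low cells high G9ai-only scores were in Crebbp, a histone acetyltransferase gene (306 and 84), Dtx2 (201 and 114), Ctbp2 (165 and 100), Rbpjl and Heyl. High CD24low vehicle-only scores were in Lfng, whose protein adds sugars to Notch receptors (76 and 154, at its promoter), and Furin (95 and 68, at its promoter). Ncor1 (65 and 81) and Snw1 (76 and 62) came after them. The medians of those lists were 67 and 75, so Furin, Ncor1 and Snw1 each had a score below the median. In CD24high cells high G9ai-only scores were in Maml2 (357 and 185), Ep300 (200 and 172), Neurl1b and Dtx3, and high vehicle-only scores in Maml2 (300), Fbxw7 (145), Dtx2 (140) and Hes2 (132).

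Over the 6 groups, some further genes were listed in exactly the groups of a Notch gene above. Ctbp2, Fbxw7 and Dtx4 shared the pattern of Notch1, which 211 of the 21887 protein-coding genes had. Kat2b and Dtx2 shared that of Rbpj, which 455 had. No further pathway gene shared that of Notch3.

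Markers of the sorted and of other cells were also searched for listed regions. The lists hold arm differences only, so this is no check of the gate. Of the gate's own genes, Epcam, Ly6a (Sca-1) and Cd24a had no listed region, and Pecam1 (CD31) and Ptprc (CD45) had one. Regions were listed in 7 of 10 epithelial genes, 5 of 6 secretory, 7 of 8 multiciliated, 2 of 4 basal, 7 of 8 alveolar, 5 of 9 endothelial, 4 of 7 mesenchymal and 1 of 6 leukocyte genes, against the same 43.7% of all protein-coding genes. Of the secretory genes, 5 of 6 had a CD24low G9ai-only region and 0 a CD24low vehicle-only region, against 15.9% and 7.44% of all genes. The epithelial genes went the other way, with 1 of 10 and 3. The CD24low G9ai lists were 2.88 times as long as the vehicle lists. Of the multiciliated genes 4 of 8 had a CD24low G9ai-only and 1 a CD24low vehicle-only region, and of the alveolar genes 4 of 8 and 3 did. Lists of arm differences do not give a level of openness, so they cannot place a cell type, and the part of cell makeup in the Notch regions was not tested.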

How the data were processed

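ATAC-seq was deposited as 10 lists of nucleosome-free peaks on mm10. Per the submitters' processing notes, FastQC, Bowtie2 and MACS2 were used, with no version or setting stated, and the library protocol was that of Corces et al., per the labels. In each deposited list the fifth column is the authors' whole-number score, whose scale is not stated. The file names mark the lists as unique to an arm. Repeated lines (47 to 472 per list) were dropped. Peaks were assigned to genes by an overlap of at least 1 bp with RefSeq GRCm38.p6 spans plus 1000 bp on either side. Peaks of a population that overlapped by at least 1 bp were merged. Lists hold no read counts, so the sequencing depth is unknown. Groups were compared by exact permutation over libraries (python 3.11.15). Start sites, promoters and motif searches used RefSeq sequences. The class calls were tested on simulated lists. All 10 genes were named, with, of 57 further pathway genes, up to 5 per population and direction by best mean score (ties kept) and those sharing a listed gene's presence pattern; 1 of them is not reported here by name. The genes and lists were chosen with earlier results of these data known.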

Additional observations from a re-analysis of the deposited data

Results flagged for a closer look

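The count of listed peaks in the 10 Notch genes moved in opposite directions in different populations. Every library of the G9ai arm was on the same side of its vehicle libraries, but CD24neg and CD24high cells had 1 vehicle list each. Replicate lists of a group also held nearly the same regions. The difference G9ai minus vehicle was −2 peaks in CD24neg cells, 9.5 in CD24low cells and −28 in CD24high cells. The CD24neg difference minus the CD24low difference was −11.5 peaks, and the CD24low difference minus the CD24high difference was 37.5 peaks. These differences between populations were not tested. The list lengths differed in the same directions. G9ai lists were 0.469, 2.88 and 0.216 times as long as vehicle lists in CD24neg, CD24low and CD24high cells. With every list cut to its 2552 best-scoring peaks, the differences were 2, −0.5 and −4.5 peaks in those populations. The directions in CD24neg and CD24low cells thus turned. Beyond that cut, the part of list length in the result was not tested.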

How the results depend on the processing

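Of 193 values recomputed under other settings, 166 kept their direction and their side of the threshold or stayed within their error, 26 moved and 1, with a test, reversed. Of the 166, 13 were still over 1.5 times larger or smaller. The CD24low difference was 19 peaks with 50000 bp, 3 with the higher-scoring 50% of peaks, 5.5 without Maml3 and 3.5 without Notch2 too. The sum over populations was −12.5 with the higher-scoring 50%, −3 with equal lists, −11.5 without Maml3 and −7.5 without both genes. The CD24low vehicle-only density ratio was 7.68 with the higher-scoring 50%, 5.92 without Maml3 and 6.57 without both. The CD24neg vehicle-only ratio was 3.25 without both, and the CD24high G9ai-only ratio 1.33 without Maml3. The reversal came with lists cut to equal length (the 2552 best-scoring peaks, the length of the shortest list): the CD24low difference became −0.5 peaks. That setting also turned the untested CD24neg difference to 2 and gave −4.5 in CD24high cells, 1 gene with a CD24neg vehicle-only region, and 2 genes, Notch3 and Hey2, with a CD24low G9ai-only region. With the higher-scoring 50% of peaks the CD24neg and CD24high differences were −0.5 and −15, and the genes numbered 2 for CD24neg vehicle-only, 2 for CD24low vehicle-only and 1 for CD24high G9ai-only regions. Without flanks the differences were −1 and −27, with 5000 bp the CD24high one was −31, and with 50000 bp they were −6 and −36, with 8 CD24neg vehicle-only and 7 CD24high G9ai-only genes. Counting peaks at least 50% inside gave −1 in CD24neg cells.

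Chosen after seeing the data, leaving out Maml3 gave −15 in CD24high cells and 1 CD24high G9ai-only gene. Leaving out Notch2 too gave −3 and −8 in CD24neg and CD24high cells, 1 CD24neg G9ai-only, 3 CD24neg vehicle-only, 2 CD24low vehicle-only and 0 CD24high G9ai-only genes, whose density ratio was then 0. With the replicate block (same-numbered CD24low libraries as pairs, a number that the labels do not tie to a mouse) the difference was 9.5 (exact permutation p = 0.5, the smallest that 2 pairs allow). Leaving out single libraries changed no call. In CD24neg and CD24high cells no paired fit could be made, since the vehicle arm had 1 list.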
